A study of Mus musculus with 13 samples.

Results

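The wax and sterol ester genes described here are 10 genes that act in or mark the sebaceous gland, the skin gland that empties sebum into the hair canal. They were chosen by name as *Far1*, *Far2*, *Awat1*, *Awat2*, *Dgat2*, *Dgat2l6*, *Soat1*, *Mc5r*, *Krt79* and *Plin2*, and all 10 were found among the 49315 genes of the count tables. All 10 also had enough counts for a test, as did 20168 genes overall. The values come from RNA-Seq of whole back skin taken at P4 from 3 WT mice and from 3 mice labelled DKO, whose genotype was K14Cre+ Kctd1 fl/fl Kctd15 fl/fl. In DKO mice both floxed genes are meant to be lost where K14Cre acts, which is the keratinocyte lineage, including hair follicles and their glands, while dermis, fat and muscle in the same piece of skin keep both genes. *Kctd1* and *Kctd15* encode related BTB domain proteins that bind the transcription factor AP-2α. The labels give no further detail of the WT genotype, and each library stands for 1 mouse.

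Sebum lipids are made in a series of steps that these genes follow. Fatty acids are made, elongated and desaturated, some are reduced to fatty alcohols by the fatty acyl-CoA reductases FAR1 and FAR2, and wax synthases such as AWAT1 and AWAT2 join an alcohol to a fatty acyl chain to give a wax ester. DGAT2, the founder of the enzyme family to which AWAT1, AWAT2 and DGAT2L6 belong, makes triglyceride, and SOAT1 esterifies cholesterol. The lipids gather in droplets coated by PLIN2 until the sebocyte bursts. MC5R is the melanocortin receptor of the gland, and KRT79 is a keratin of the duct and hair canal through which sebum leaves.

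The P4 libraries held between 11263863 and 17643043 counts on genes, and counts of single wax and sterol ester genes ran from 58 to 5786 per library, well above the floor of 3 counts (0.17 to 0.2663 CPM, counting error only). Libraries of one group differed by more than sampling noise and were all kept as separate replicates, and the spread between them may include technical spread. *Kctd1* and *Kctd15* were themselves higher in skin labelled DKO with no overlap between the groups, at 742 ± 240 against 432 ± 19 and 1321 ± 189 against 745 ± 15.5 normalized counts (SD, n = 3), a normalized count being the count scaled by TMM to the mean library size. Neither passed in edgeR (adjusted p = 0.342 and 0.107), and in DESeq2 the adjusted p was 0.0783 for *Kctd1* and 6.32e-04 for *Kctd15*. Counts over the whole gene do not show whether a floxed exon was lost, so directions rest on the labels. Skeletal muscle markers were higher in DKO skin in 32 of 32 tested genes, with a summed level of 3129 to 3431 TPM (counts per length, scaled to a fixed total in each library) in WT and 5032 to 10976 TPM in DKO, none of them at 0 in all libraries. Their median log2 fold change was 1.06, and 0.58 without DKO replicate 1. DKO replicate 1 stood apart, with the highest muscle and adipocyte sums and the fewest counts, so the values of the 10 genes are also given without it.

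In DKO skin 9 of the 10 genes had lower counts than in WT skin, and the 3 that were lower by more than a factor of 2 were *Far2*, *Awat1* and *Dgat2l6*. These act in the synthesis of alcohols and esters, as do *Soat1*, *Awat2*, *Dgat2* and *Far1*, for which the list was chosen. In size of change *Soat1* and *Awat2* followed, *Plin2*, *Dgat2*, *Far1* and *Mc5r* were lower by less, and *Krt79* was about level. The median log2 fold change, DKO over WT, was -0.67 across the 10 genes and 0.02 across all genes tested, of which 47.1% were lower and whose quartiles were -0.14 and 0.20. In edgeR's quasi-likelihood fit 0 of the 10 passed an adjusted p of 0.05 with a log2 fold change beyond 1, against 0.0694% of all genes tested. An unadjusted p under 0.05 in the lower direction was reached by 7 of the 10 genes, against 2.54% of all genes. A log2 fold change under -1 was seen in 3 of them, against 0.947%, and a DKO group lying wholly below the WT group in 6, against 5.96%. Among these 6 were *Far1* and *Dgat2*, whose lowest WT library was 1 (rounded) and 1.06 times their highest DKO library. DESeq2, the tool named in the study's methods, called *Far2*, *Dgat2l6* and *Awat1*, all lower, where it called 0.783% of all genes and 0.285% in the lower direction. Without DKO replicate 1 the number lower was still 9 and the median was -0.53, but only 1 gene had a log2 fold change under -1. In whole skin, fewer gland cells and less RNA per gland cell cannot be told apart.

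**Figure D1:**
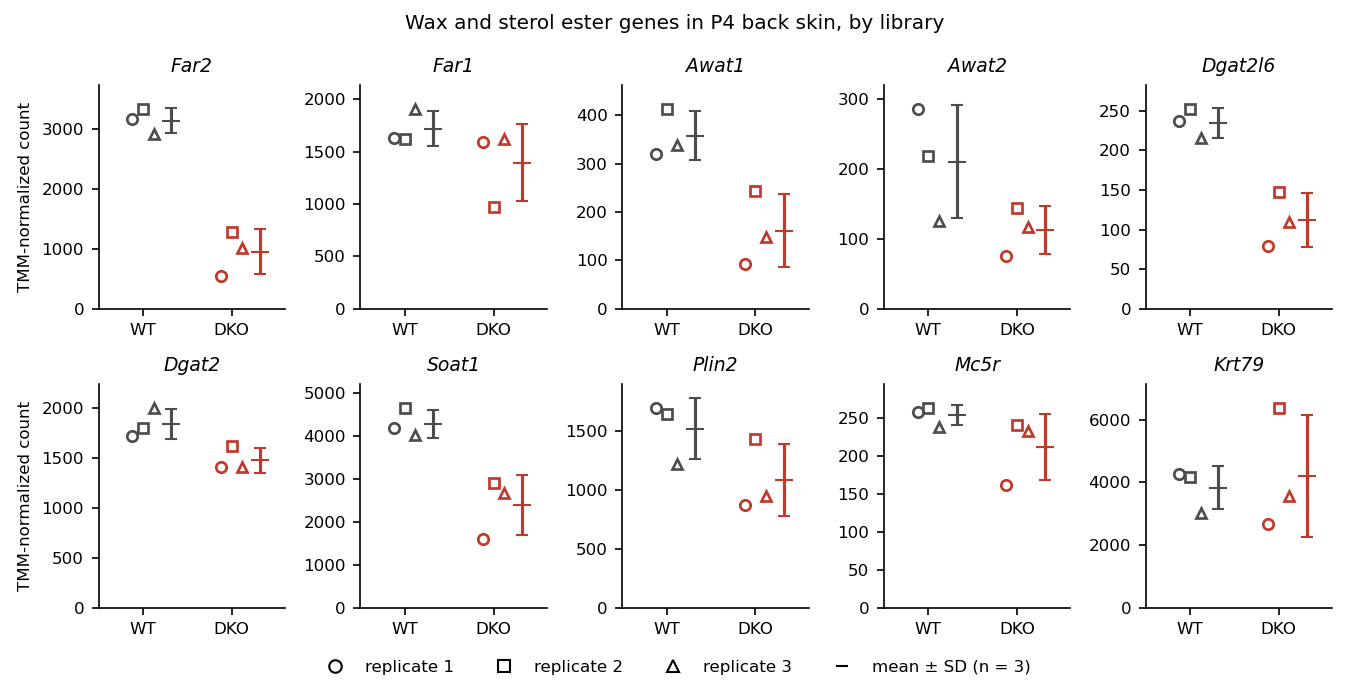
TMM-normalized counts of each gene in the 6 libraries of P4 back skin (vertical axes start at 0), with open symbols for replicates 1 to 3 and a bar for the mean ± SD of each group (n = 3). The WT and DKO symbols are far apart for Far2, separate for Awat1, Dgat2l6 and Soat1, and mixed for Krt79.

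*Far2* (ENSMUSG00000030303, GRCm38 chr6:148047259-148182758, plus strand) encodes the reductase that makes long saturated fatty alcohols for wax. Its normalized counts were 3168, 3349 and 2927 in WT (replicates 1 to 3 in order, as throughout) against 542, 1291 and 1022 in DKO. The highest DKO library thus stayed far below the lowest WT library, by a factor of 2.27, and DKO replicate 1 was the lowest of all. The DKO mean was 30.2% of the WT mean (952 ± 379 against 3148 ± 212, SD, n = 3), for a log2 fold change of -1.72 (SE 0.262, 95% interval from -2.31 to -1.14). The adjusted p was 0.068 in edgeR, just outside the threshold, and 2.65e-08 in DESeq2, and over 16 alternative settings it ran from 2.65e-08 to 0.826, passing in 9. Among the fits that each left out 1 mouse, the call appeared when DKO replicate 1 (0.00223) or DKO replicate 2 (0.0283) was left out of the edgeR fit, with log2 fold changes of -1.46 and -2.0. An exact permutation test of 3 mice against 3 cannot give a two-sided p below 0.1.

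*Far1* (ENSMUSG00000030759, chr7:113513834-113571511, plus strand), the reductase used broadly for ether lipids as well as wax, was less different between the groups than *Far2*. It was counted at 1628, 1618 and 1911 in WT and at 1596, 967 and 1618 in DKO, in normalized counts. Only DKO replicate 2 lay clearly apart, and the highest DKO and lowest WT values round to the same count. The log2 fold change of *Far1* was -0.30 with a 95% interval from -0.74 to 0.13 (adjusted p = 0.848 in edgeR), with -0.42 without DKO replicate 1 and -0.09 without DKO replicate 2. The ratio of *Far2* to *Far1* within each library, taken per length in TPM, was 2.14, 2.28 and 1.69 in WT skin and 0.374, 1.47 and 0.696 in DKO skin. *Far2* was therefore the more abundant reductase transcript in every WT library, and in DKO skin only replicate 2 kept that order. This pair of genes and the other ratios below were picked in part after their values were seen, and carry no test. The gene *Ergic2* overlaps the end of *Far2* on the opposite strand, with 518 to 1128 counts, and *Far1os* overlaps *Far1* with 87 to 155. Whether the counting used the strand is not given in the sources used here.

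*Awat2*, *Dgat2l6* and *Awat1* lie near each other on the X chromosome, within 176 kb. *Awat2* (ENSMUSG00000031220, chrX:100402221-100442717, minus strand) comes first, *Dgat2l6* (ENSMUSG00000067597, chrX:100524838-100546144, plus strand) next and *Awat1* (ENSMUSG00000015665, chrX:100572251-100578205, plus strand) last. All encode acyltransferases of the DGAT2 family that is expressed in sebaceous glands, and AWAT1 and AWAT2 are wax synthases. The bases just before each gene are shown with those of *Far2* and *Soat1*, since these 5 genes had the lowest DKO values relative to WT. They are RefSeq promoter sequence on GRCm38.p6, 5′ to 3′ on the strand of the gene, ending at the last base before the gene starts in the count tables or in RefSeq, and capitals mark the letters CCAAT. The stretch of *Far2* is shorter because RefSeq places its start inside the gene as counted.
Far2, chr6:148047166-148047258, plus strand: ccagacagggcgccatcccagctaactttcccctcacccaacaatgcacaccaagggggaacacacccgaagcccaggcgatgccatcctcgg
Awat1, chrX:100572097-100572246, plus strand: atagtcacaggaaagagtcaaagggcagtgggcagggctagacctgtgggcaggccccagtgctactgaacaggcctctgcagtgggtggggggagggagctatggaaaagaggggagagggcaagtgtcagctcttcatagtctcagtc
Awat2, chrX:100442718-100442867, minus strand: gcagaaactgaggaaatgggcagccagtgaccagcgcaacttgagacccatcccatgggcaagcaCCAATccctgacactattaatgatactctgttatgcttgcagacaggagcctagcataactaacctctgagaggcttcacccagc
Dgat2l6, chrX:100524688-100524837, plus strand: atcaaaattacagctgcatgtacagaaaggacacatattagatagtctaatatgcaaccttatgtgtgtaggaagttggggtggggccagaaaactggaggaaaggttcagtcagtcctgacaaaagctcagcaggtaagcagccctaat
Soat1, chr1:156474332-156474481, minus strand: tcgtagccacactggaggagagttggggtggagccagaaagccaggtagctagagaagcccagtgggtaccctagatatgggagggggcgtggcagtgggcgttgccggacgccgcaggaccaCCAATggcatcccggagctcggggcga

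No motif searched was present in the windows of all 5 genes. Promoter windows were found for 8 of the 10 genes, each from 250 bases before to 50 bases after the RefSeq start, and letters were searched on both strands. CCAAT was present in 5 of the 8, against 37.4% of 32851 promoter windows, and the GC box GGGCGG in 4, against 35.7%. The AP-2 letters GCCNNNGGC were searched because both targeted proteins bind AP-2α. They were found in *Soat1* and *Plin2*, 2 of the 8 windows, against 16.6% of all windows. The nuclear receptor letters AGGTCA were found in *Plin2* alone (16.3% of all windows). The PPAR response element, searched as a direct repeat of AGGTCA with 1 free base between the copies and so overlapping that motif, was found in 0 of the 8 (0.0396% of all). A match of letters is a description of the window and says nothing of binding.

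*Awat1* had normalized counts of 320, 414 and 339 in WT against 93.3, 243 and 148 in DKO. Each DKO library was below each WT library, with DKO replicate 2 coming nearest. The DKO mean was 45.1% of the WT mean, for a log2 fold change of -1.14 (SE 0.294). The adjusted p was 0.298 in edgeR and 0.0141 in DESeq2. *Dgat2l6* showed 237, 253 and 216 in WT and 78.9, 148 and 109 in DKO. Its WT libraries lay close together and its DKO libraries kept the same order as those of *Awat1*. The DKO mean of *Dgat2l6* was 47.5% of WT, for a log2 fold change of -1.07 (SE 0.23), and its adjusted p was 0.205 in edgeR and 0.0055 in DESeq2. Without DKO replicate 2 edgeR also called both, at log2 fold changes of -1.55 (*Awat1*, adjusted p = 0.0442) and -1.31 (*Dgat2l6*, adjusted p = 0.0479). Without DKO replicate 1 the log2 fold change was -0.89 for both, and neither was called. Over the 16 alternatives the adjusted p ran from 0.00166 to 0.987 for *Awat1* and from 0.00372 to 0.914 for *Dgat2l6*.

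*Awat2* was counted at 287, 219 and 126 in WT and at 76.2, 145 and 117 in DKO. Here the groups overlapped, since WT replicate 3 was below DKO replicate 2. The log2 fold change was -0.89 with a 95% interval from -1.61 to -0.17 (adjusted p = 0.508 in edgeR, 0.237 in DESeq2), and it was -0.62 without WT replicate 1 and -0.70 without DKO replicate 1. The TPM ratio of *Awat1* to *Awat2* within a library overlapped between the groups, at 1.70, 2.89 and 4.12 in WT and 1.87, 2.57 and 1.93 in DKO.

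The other genes of this stretch of the X chromosome had values nearer to 0 or too few counts. *Igbp1*, a phosphatase regulator that lies between *Awat2* and *Dgat2l6*, had a log2 fold change of -0.22 (SE 0.134, adjusted p = 0.819 in edgeR) and overlapping groups. *P2ry4*, a nucleotide receptor gene beyond *Awat1*, had 0.11 (SE 0.149, adjusted p = 0.95). *Otud6a*, which overlaps *Awat2* on the other strand, held 1 to 4 counts per library, and *Gm6175* held 0. Because these genes are X-linked, *Xist* was read too. It was high in 1 WT and 1 DKO library (55712 and 57154 counts) and between 9 and 144 counts in the other 4. Comparing the pair with high *Xist* gave log2 ratios of -1.29 for *Awat2*, -1.13 for *Dgat2l6* and -1.11 for *Awat1*, and the 4 libraries with low *Xist* gave -0.64, -1.05 and -1.16.

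**Figure D2:**
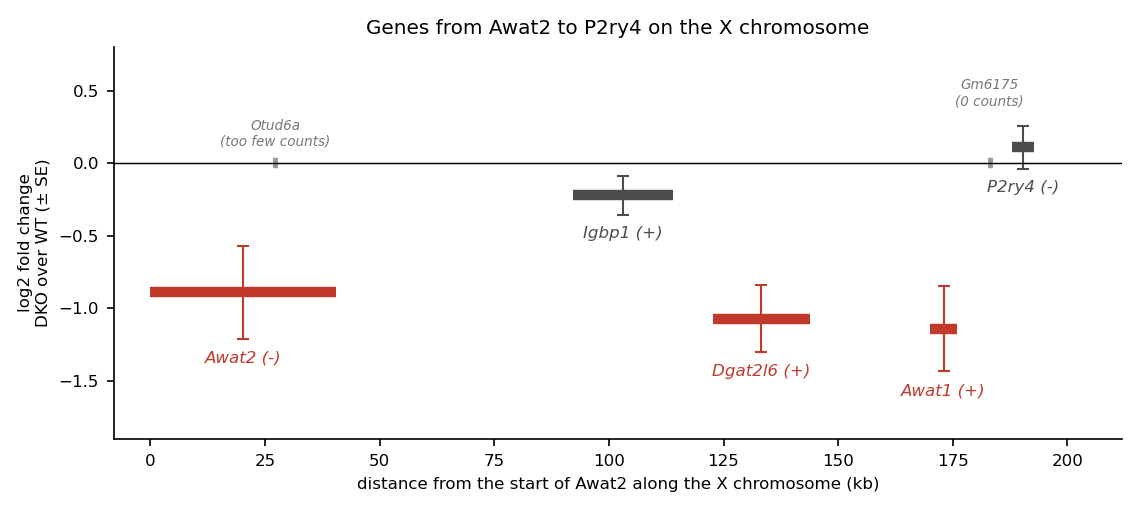
Log2 fold change of each gene, DKO over WT, with its standard error (edgeR), placed by distance in kb from the start of Awat2 along the X chromosome. Bars span the genes, with Awat2, Dgat2l6 and Awat1 in red between -0.89 and -1.14 and Igbp1 and P2ry4 in grey at -0.22 and 0.11, and the ticks at 0 only mark the position of Otud6a and Gm6175, which were not tested.

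*Dgat2* (ENSMUSG00000030747, chr7:99153658-99182719, minus strand), the triglyceride synthase that sebocytes share with fat cells, was less different. Its normalized counts were 1718, 1794 and 2000 in WT and 1405, 1622 and 1406 in DKO. The groups did not overlap, but the gap was narrow, the lowest WT library exceeding the highest DKO library by a factor of 1.06. The log2 fold change was -0.31 (SE 0.126, 95% interval from -0.60 to -0.03, adjusted p = 0.582 in edgeR). Relative to *Dgat2* in the same library, *Dgat2l6* was at a TPM ratio of 0.0899, 0.0917 and 0.0701 in WT and 0.0365, 0.0593 and 0.0502 in DKO, again without overlap. Adipocyte markers, which could carry *Dgat2* with them, summed to 1491 to 2149 TPM in WT and 1450 to 3648 TPM in DKO, with 12 of 15 genes higher and none at 0 in all libraries. Without DKO replicate 1 the adipocyte genes turned, with 9 of 15 lower and a median of -0.17, while *Dgat2* stood at -0.30. Their part in the value of *Dgat2* was not tested.

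*Soat1* (ENSMUSG00000026600, chr1:156424525-156474331, minus strand) was lower in every DKO library. It encodes the enzyme that stores cholesterol as its fatty acid ester and had the highest mean normalized count of the 10 genes in WT skin. The values were 4181, 4661 and 4029 in WT and 1600, 2901 and 2669 in DKO. DKO replicate 1 was again the lowest, and the other two DKO libraries were similar to each other. The mean was 55.7% of WT (2390 ± 694 against 4290 ± 330, SD, n = 3), for a log2 fold change of -0.84 (SE 0.204, adjusted p = 0.27 in edgeR, 0.0142 in DESeq2), so that in DESeq2 only the fold change kept *Soat1* from being called. In the fits that each left out 1 mouse the log2 fold change ran from -1.0 to -0.64, the latter without DKO replicate 1. *Gm37648*, on the other strand within *Soat1*, held 76 to 205 counts.

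*Far2* was also lower in relation to *Soat1* in each DKO library. The TPM ratio of *Far2* to *Soat1* was 1.01, 0.962 and 0.973 in WT, nearly constant, and 0.453, 0.596 and 0.513 in DKO. The means of this ratio were 0.983 and 0.521.

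*Plin2* (ENSMUSG00000028494, chr4:86648386-86670060, minus strand), which coats lipid droplets in most cells that store fat, had normalized counts of 1700, 1645 and 1225 in WT and 877, 1436 and 947 in DKO. DKO replicate 2 lay above WT replicate 3, so the groups overlapped. The log2 fold change was -0.49 with a 95% interval from -0.95 to -0.02 (adjusted p = 0.637 in edgeR), and it was -0.37 without DKO replicate 1.

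*Mc5r* and *Krt79* mark the gland and its duct without making lipid. *Mc5r* (ENSMUSG00000007480, chromosome 18, plus strand) was counted at 258, 263 and 238 in WT and 162, 240 and 232 in DKO. Only DKO replicate 1 lay well below WT, and the groups overlapped. The log2 fold change of *Mc5r* was -0.26 with a 95% interval from -0.67 to 0.16 (adjusted p = 0.892 in edgeR), and -0.11 without DKO replicate 1. *Krt79* (ENSMUSG00000061397, chr15:101929332-101940324, minus strand) had 4285, 4190 and 3033 in WT and 2670, 6382 and 3556 in DKO. DKO replicate 2 was the highest of all libraries and DKO replicate 1 the lowest. The log2 fold change of *Krt79* was 0.13 with a 95% interval from -0.50 to 0.77 (adjusted p = 0.966 in edgeR). It was 0.35 without DKO replicate 1, and its sign turned to -0.30 without DKO replicate 2, to -0.03 without WT replicate 3 and to -0.05 when libraries were scaled to basal keratinocyte genes.

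**Figure D3:**
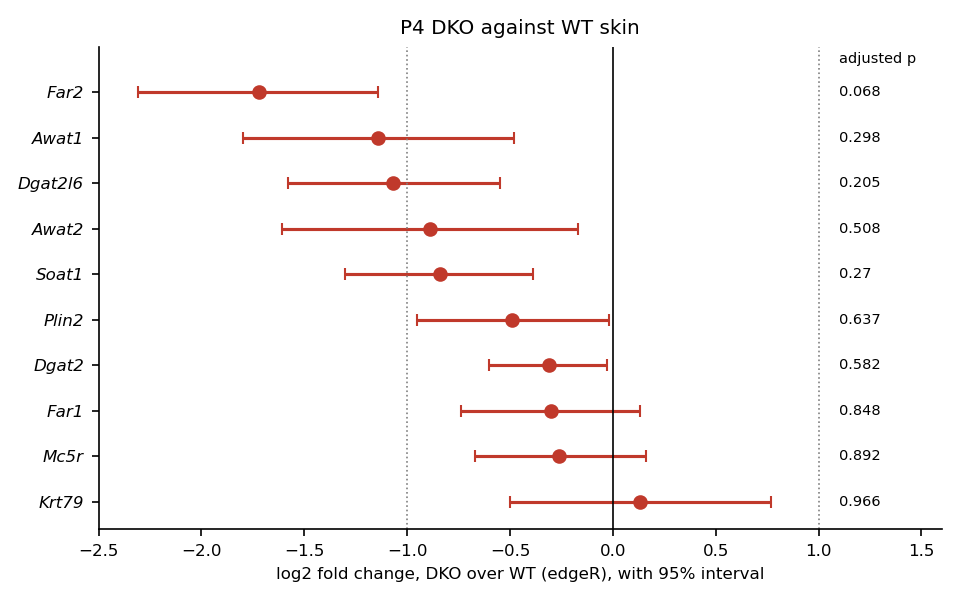
Log2 fold change of each gene, DKO over WT, from edgeR (points) with its 95% interval (bars), and the adjusted p at the right. Dotted lines mark a log2 fold change of -1 and 1, and the intervals of Far2, Awat1, Dgat2l6, Awat2, Soat1, Plin2 and Dgat2 lie below 0 while those of Far1, Mc5r and Krt79 include it.

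Set against *Krt79* of the same library, which removes differences in scaling, *Far2*, *Awat1*, *Dgat2l6* and *Soat1*, the genes for which this ratio was taken, were lower in each DKO library. In TPM, *Far2* stood at 0.212, 0.229 and 0.277 of *Krt79* in WT and at 0.0582, 0.058 and 0.0824 in DKO. *Awat1* stood at 0.113, 0.149 and 0.169 in WT and 0.0527, 0.0574 and 0.0629 in DKO. For *Dgat2l6* the ratios were 0.0245, 0.0267 and 0.0314 against 0.0131, 0.0102 and 0.0135, and for *Soat1* 0.209, 0.238 and 0.285 against 0.128, 0.0974 and 0.161. The DKO libraries, which spread widely in the counts of each gene, lay closer together in the ratios of *Awat1* and *Dgat2l6*.

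In normalized counts the 3 DKO libraries differed among themselves in a regular way. DKO replicate 1 was the lowest DKO library in 9 of the 10 genes and DKO replicate 2 the highest in 9, with *Far1* the exception in both. The order depended on scaling. In TPM, DKO replicate 3 was highest for *Soat1* (36, 51.5 and 56.5) and *Mc5r* (30.7, 36 and 41.4), and DKO replicate 1 for *Dgat2* (101, 91.5 and 94.5). Nor was it particular to these genes. Median centred log2 counts of basal keratinocyte markers (-0.26, 0.39 and -0.03) and of the other gland and duct genes (-0.41, 0.30 and -0.11) repeated it. In percent of the WT mean, DKO replicates 1, 2 and 3 stood at 17.2%, 41% and 32.5% for *Far2*, at 37.3%, 67.6% and 62.2% for *Soat1* and at 33.5%, 62.8% and 46.1% for *Dgat2l6*. The coefficient of variation in DKO was 39.9% for *Far2*, 46.8% for *Awat1* and 46.1% for *Krt79*, against 6.74%, 13.9% and 18.2% in WT. *Awat2* was the exception among the ester genes, with 38.5% in WT and 30.5% in DKO. Muscle markers were highest in DKO replicate 1, at 10976 TPM against 5032 and 5207 TPM in DKO replicates 2 and 3. The part of muscle in the lower values was not tested. Taking the listed muscle genes out of the library sizes changes only the scaling. The median of the 10 genes was then -0.68, against -0.67 in the main fit. Markers of basal keratinocytes overlapped between the groups, at 3514 to 3847 TPM in WT and 3480 to 4700 TPM in DKO, and scaling to them gave a median of -0.80 with 10 of 10 lower.

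**Figure D4:**
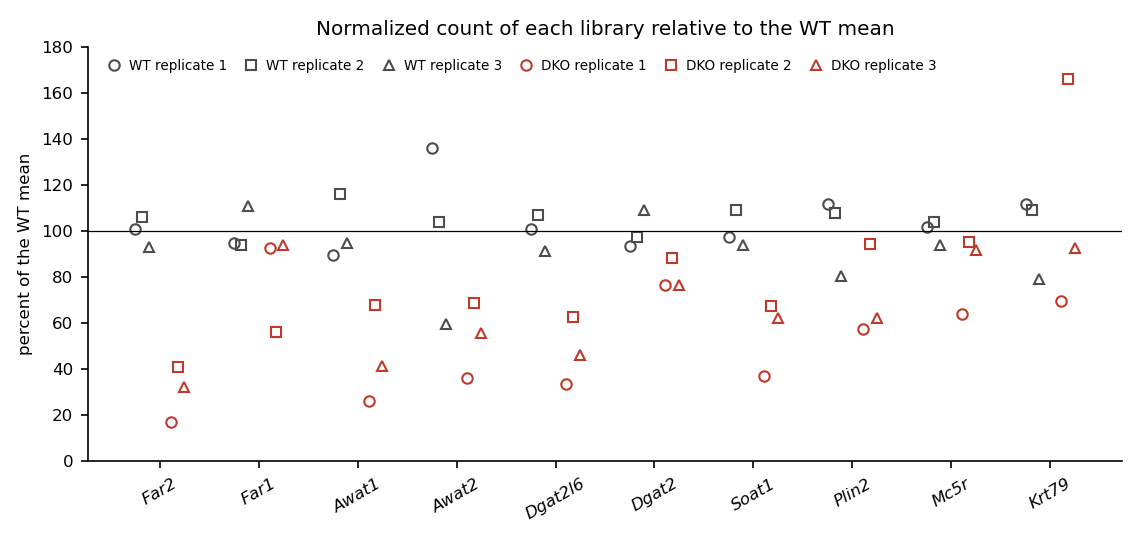
Normalized count of every library as a percent of the WT mean of the same gene, with grey symbols for WT and red for DKO and a line at 100%. DKO replicate 1 (red circle) is the lowest DKO library in 9 genes and DKO replicate 2 (red square) the highest in 9.

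Levels per length put the duct keratin first and *Awat2* and *Dgat2l6* last. This order depends on the counted length, which was 4741 bases for *Dgat2l6* and 2126 for *Awat2*. In normalized counts the WT mean of *Dgat2l6* (235) was above that of *Awat2* (211), and that of *Soat1* (4290) above that of *Krt79* (3836). In WT skin the mean TPM was 368 for *Krt79*, 120 for *Dgat2*, 88.3 for *Soat1*, 87.3 for *Plin2* and 86.7 for *Far2*. Then came *Awat1* at 51.9, *Mc5r* at 43.8, *Far1* at 43, *Awat2* at 19.9 and *Dgat2l6* at 10. The ranges over the 3 WT libraries overlapped between *Soat1* and *Plin2*, *Plin2* and *Far2*, *Awat1* and *Mc5r*, and *Mc5r* and *Far1*, so the order within these pairs is not firm. In DKO skin *Far2* stood in place 7 of 10 in place of 5, at a mean of 25.3 TPM, and *Awat1* in place 8, at 22.4 TPM. *Mc5r* and *Far1*, at means of 36 and 35.4 TPM, were then above both. This order of means is not firm either, since in DKO replicate 2 *Far1* was at 20.9 TPM, below *Far2* at 30.7 and *Awat1* at 30.4. The 10 genes made up between 0.0615% and 0.123% of all counts in a library.

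Paralogs that do related chemistry elsewhere were close to level or barely counted. *Dgat1*, the other triglyceride synthase, had 781 ± 91.9 normalized counts in WT and 709 ± 150 in DKO (SD, n = 3), with a log2 fold change of -0.14 (adjusted p = 0.943 in edgeR). *Soat2*, *Mogat1* and *Mogat2*, which are best known from liver and intestine, were under the filter on low counts with means of at most 5.28 normalized counts. A list of 14 glycerolipid and sterol acyltransferases and lipins, these among them, had 11 tested genes, 5 lower and 6 higher, with a median log2 fold change of 0.01 and 0 called (0 also at an unadjusted p under 0.05 and 0 by DESeq2). The members with the smallest p were *Lpin1* at 0.39 and *Agpat1* and *Gpat3* at 0.24 each. In the 9 ether lipid genes, the other outlet of fatty alcohols, 6 were lower and the median was -0.09, with 0 called (0 at an unadjusted p under 0.05, 0 by DESeq2). *Pex7*, a peroxisomal import receptor, had -0.28, *Agps* -0.19 and *Gnpat* 0.14.

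Genes of fatty acid supply, the step before the 10 genes, also had lower counts. Of 22 genes for making, elongating, desaturating and activating fatty acids, all tested, 18 were lower, 9 of them at an unadjusted p under 0.05, and 1 was higher at that level. The median log2 fold change was -0.25 and 10 genes lay wholly below WT. Of all genes tested, 47.1% were lower, 2.54% were lower at an unadjusted p under 0.05 in edgeR and 5.96% lay wholly below WT. *Elovl6*, which elongates palmitate, was the only one that edgeR called. It had 7726 ± 946 normalized counts in WT and 2448 ± 572 in DKO (SD, n = 3), for a log2 fold change of -1.66 (adjusted p = 0.0155 in edgeR). That call was lost without WT replicate 1, 2 or 3 (adjusted p = 0.173, 0.125 and 0.0642 in edgeR) and without DKO replicate 3 (0.107), while the log2 fold change in these fits was -1.66, -1.58, -1.76 and -1.64. *Scd1*, the desaturase of the sebaceous gland and of fat, had a log2 fold change of -1.31 (adjusted p = 0.0617 in edgeR), and *Elovl5*, an elongase of polyunsaturated chains, had -0.61 (0.168). DESeq2 called 4 genes of this list, all lower, where it called 0.285% of all genes in the lower direction. Over the alternatives the median of the list ran from -0.37 to -0.18. The summed level of the list was 3191 to 3476 TPM in WT and 2031 to 2047 TPM in DKO. *Scd1*, *Elovl4* and *Elovl6* weighed most in that difference, with mean TPM of 942, 641 and 242 in WT and 372, 363 and 74.9 in DKO. Single genes within this sum spread over the DKO libraries, with *Elovl6* at 1901, 3041 and 2401 normalized counts and *Acsl1*, an acyl-CoA synthetase, in another order at 7451, 4023 and 3829 (*Acsl1* was named after its values were seen).

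Other genes of the gland and its duct were mixed. In a list of 18 genes with no wax synthase in it, 11 were lower and 7 higher, with a median of -0.02. The list had 0 calls in edgeR, 3 genes lower and 1 higher at an unadjusted p under 0.05, and 2 called by DESeq2. Of all genes, 2.54% were lower at that unadjusted p in edgeR, and DESeq2 called 0.783%. Those with the smallest p were again lipid genes. *Scd3*, a desaturase found in sebocytes, had a log2 fold change of -2.37, *Elovl3*, an elongase of sebaceous gland and brown fat, had -1.06, and *Fabp5*, a fatty acid binding protein of keratinocytes and sebocytes, had -0.47. *Scd3* and *Elovl3* are also in the fatty acid list, and reads of *Scd3* could have been divided with its near copies. Several regulators of the lineage, named after their values were seen, stood close to 0. Among them were *Pparg*, the nuclear receptor of sebocytes and fat cells, at 0.11, *Prdm1* at -0.04, *Lrig1*, a stem cell marker of the junctional zone, at 0.09, and *Sox9* at -0.05. *Pparg* had 430, 456 and 552 normalized counts in WT and 734, 405 and 418 in DKO. Its DKO replicate 1 was thus above all WT libraries and DKO replicates 2 and 3 were below them. Others of the list stood further from 0 with overlapping groups, as *Cidea* at -0.57, *Krt7* at -0.45, *Myc* at 0.28 and *Defb6* at 0.25. *Gata6*, a transcription factor of the duct, had 0.51 (unadjusted p = 0.0404 in edgeR).

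Lipid droplet and melanocortin genes had medians near 0. Of 16 tested droplet genes other than *Plin2*, 5 were lower, and the median was 0.06 with 0 called (4 at an unadjusted p under 0.05, 3 of them higher, and 0 by DESeq2). *Fitm1*, a droplet protein of skeletal muscle, had a log2 fold change of 1.18 and *Plin5*, known from muscle that burns fat, 1.15. *Pnpla2*, the lipase that opens triglyceride breakdown, had 0.66. Muscle transcripts were also higher in this skin, and their part in these 3 values was not tested. Of 9 melanocortin genes 4 could be tested, with a median of 0.04 and 0 called (0 at an unadjusted p under 0.05, 0 by DESeq2). *Mrap*, an accessory protein of these receptors, had 0.33, *Mc2r* 0.44 and *Mc1r*, the receptor of melanocytes, -0.25.

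**Figure D5:**
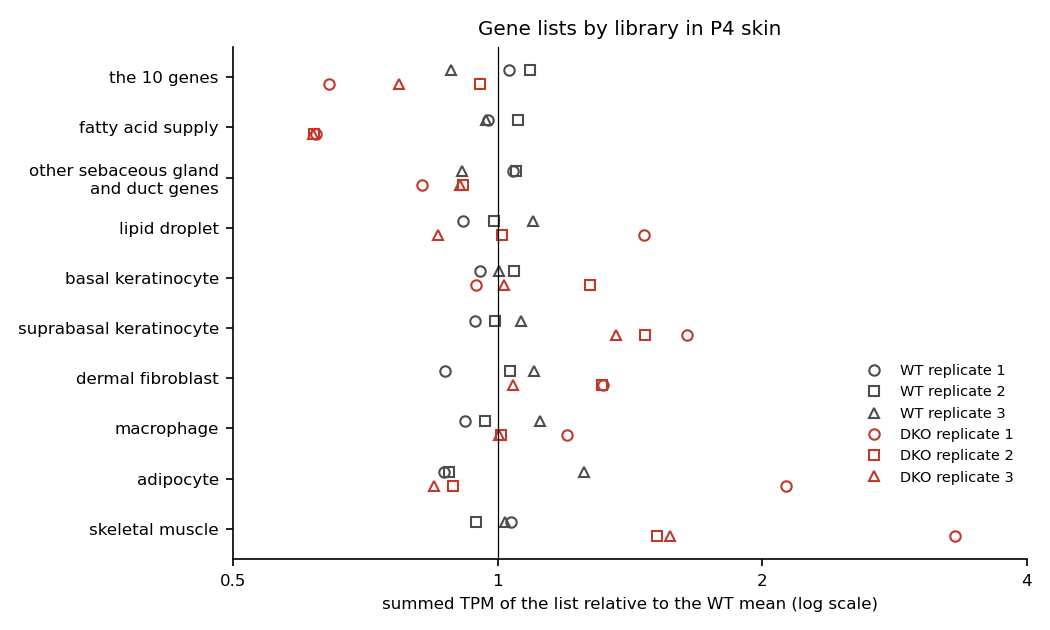
Summed TPM of each gene list in each library, divided by the WT mean of the list, on a log scale, with grey symbols for WT and red for DKO. DKO libraries lie below all WT libraries for fatty acid supply (2031 to 2047 TPM against 3191 to 3476) and above them for skeletal muscle (5032 to 10976 TPM against 3129 to 3431), while the sums of the 10 genes, which Krt79 dominates, overlap (590 to 878 TPM against 813 to 999). In the sums for fatty acid supply Scd1 and Elovl4 weigh most.

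Genes of other skin cells were read beside these. Suprabasal keratinocyte markers summed to 5368 to 6055 TPM in WT and 7764 to 9348 TPM in DKO, with a median of 0.48. *Krt1* and *Krt10* made up most of these sums and were higher in each DKO library. Of 5 tested genes 4 were higher and 0 were called in edgeR. *Ivl* was lower at -0.09, and *Krt2*, under the filter on low counts, had means of 6.07 normalized counts in WT and 1.61 in DKO. Fibroblast markers had a median of 0.24 and macrophage markers 0.08, and in both lists the sums overlapped between the groups. Their part in the values of the wax and sterol ester genes was not tested.

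Across all 6 libraries, 14495 tested genes with a mean of at least 50 normalized counts were ranked by profile. The rank was by how near their centred log2 profile lay to the median profile of the 10 genes. The 10 genes and the lipid, gland and melanocortin lists were left out, while the lists of other skin cells stayed in. The nearest was *Slc25a37*, a mitochondrial iron importer, at a root mean square distance of 0.0756. *Cers4*, a ceramide synthase, followed at 0.0799, *Nek5*, a kinase, at 0.091, *Plb1*, a phospholipase, at 0.0969, and *Insig1*, which holds back sterol synthesis, at 0.102. *Insig1* had 1752, 1682 and 1722 normalized counts in WT and 872, 1441 and 1190 in DKO. *Cers4* had 2198, 2308 and 2022 in WT and 1050, 1804 and 1536 in DKO. Both thus repeated the order of the DKO libraries seen in *Far2* and *Soat1*, which is what the ranking selects for.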

How the data were processed

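Total RNA of whole back skin at P4 was depleted of rRNA and sequenced as paired ends from 3 WT and 3 DKO mice. The authors used Trimmomatic 0.36 for trimming and STAR 2.5.2b for mapping to GRCm38, then counted reads per gene with featureCounts of Subread 1.5.2, versions per the submitters' processing notes. The deposited values are whole-number counts per gene, not normalized. Strand and multi-mapping settings are not given in the sources used here, and reads of near-identical genes could have been divided. The 7 epidermis libraries of the series are at 0 counts throughout the tables used here and gave no result. Symbols were found for 48970 identifiers (99.3%), and *Asip* of the melanocortin list was not matched.

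Groups follow the labels. Counts were filtered with filterByExpr, scaled by TMM and tested with edgeR 4.0.16 (glmQLFit and glmQLFTest) in R 4.3.3, with Benjamini-Hochberg adjustment over 20168 genes. A call required an adjusted p under 0.05 together with a log2 fold change beyond 1 in either direction. SE (standard error) and 95% intervals were derived from each fold change with its F value. TPM was computed from counts and the counted length. The fit was also run on data simulated from its own means and a common dispersion, with planted changes larger than those of the 10 genes. Alternatives were DESeq2 1.42.0, other scalings and filters, a replicate block and each replicate left out. The genes, lists and tests were chosen with earlier results of these data known. Named were the 10 genes, 4 paralogs, the 3 smallest p in each pathway list and the 5 nearest profiles. Others were named after their values were seen. Counting intervals and floors cover counting error only.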

Additional observations from a re-analysis of the deposited data

How the results depend on the processing

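The number lower stayed at 9 or 10 of 10 under every alternative run. The median, -0.67 in the main fit, stayed below 0 but changed in size. It ran from -0.87 without DKO replicate 2 to -0.52 without WT replicate 1. The number without overlap between groups was 6 to 8 under the 6 scalings and filters for which it was counted. The number of the 10 genes called, 0 in edgeR, was 3 with DESeq2 and with no filter on low counts, and 1 with total counts, with library sizes without the muscle list, with scaling to basal keratinocyte genes and in the 4 libraries that share one number. It ran from 0 to 3 with each mouse left out, with 1 without DKO replicate 1 and 3 without DKO replicate 2. Calls among all genes, 14 in edgeR, numbered 154 with DESeq2, 22 with total counts, 210 with no filter and 9 in those 4 libraries, and 2 to 36 with each mouse left out. The cause of these differences was not tested. *Krt79* was -0.05 with scaling to basal keratinocyte genes and ran from -0.30 to 0.35 with each mouse left out.

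The number in the sample titles, which the labels do not explain, was used as a replicate block. The block gave 1 call among the 10 genes (*Far2*, adjusted p = 0.012 in edgeR) and 35 among all genes. Deviations from the group means correlated at -0.0167 to 0.223 across genes in pairs that share a number and at -0.144 to -0.103 in the others, and every library correlated best with one of its own number, which is a hint from the data and not the design.

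Medians of the acyltransferase (-0.08 to 0.14), droplet (-0.03 to 0.21), melanocortin (-0.06 to 0.36) and other gland lists (-0.18 to 0.02) took both signs. With 3 mice a group, the 95% intervals of *Far1*, *Mc5r* and *Krt79* include 0 and reach -0.74, -0.67 and 0.77.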

Other observations

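The 2 numbers in the sample titles divide the mice into 1 WT and 1 DKO mouse under one number and 2 of each under the other. Within the pair, log2 ratios of normalized counts, DKO over WT, were lower than 0 for all 10 genes, from -2.43 for *Far2* to -0.18 for *Krt79*. Within the 4 libraries, 9 were lower, from -1.49 for *Far2* to 0.23 for *Krt79*. *Soat1* had -1.33 in the pair and -0.67 in the 4 libraries, *Dgat2l6* -1.45 and -0.94, and *Awat1* -1.86 and -0.91. The pair contains DKO replicate 1, so the number and that library cannot be told apart. *Plin2*, at -0.48 and -0.49, and *Far1*, at -0.26 and -0.33, were alike under both numbers.

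Leaving out the 2 libraries with high *Xist*, an alternative chosen after seeing the data, gave edgeR log2 fold changes of -1.77 for *Far2* (adjusted p = 0.826) and -0.95 for *Soat1* (0.908), with 2 mice a group.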
